A study of Mus musculus with 8 samples.

Results

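The genes that encode Krüppel-like factors (Klf), specificity proteins (Sp) and early growth response factors (Egr) were examined for binding of ZFP281 in mouse mammary spheres. Members were all protein-coding genes of the RefSeq table of GRCm38, the mm10 build, with the symbol Klf and a number, Sp1 to Sp9 or Egr1 to Egr4, which gave 30 genes of 21887. They comprised 17 Klf, 9 Sp and 4 Egr genes. ZFP281 chromatin immunoprecipitation sequencing had been carried out on 2 groups of spheres from the MMTV-HER2/Neu mouse, in which the mammary tumour virus promoter drives the Neu oncogene in mammary epithelium. Primary tumour (PT) spheres, 3 libraries, were grown from tumours of mice older than 20 weeks, and early lesion (EL) spheres, 3 libraries, from mice of 14 to 18 weeks in which no tumour could be felt. Both groups share the FvB background, the transgene and 7 days of culture in mammosphere medium on low-adhesion plates, so neither is a transgene-free control. The labels call the libraries biological replicates without naming animals, so all p-values measure the spread between these samples, which may be partly technical. The tissue is labelled breast tumor for PT and mammary lung for EL. A list of binding sites holds no expression level, so the labelled cell type was not checked.

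Klf, Sp and Egr proteins are transcription factors whose C2H2 zinc fingers bind GC-rich or CACC-type DNA. Sp1 to Sp4 are broadly expressed or neuronal activators of GC-box promoters, Sp5 to Sp9 act mainly in development, and the Klf proteins fall into activators and repressors that differ in the corepressor they recruit. Egr genes are immediate early genes, switched on within minutes by growth factor signals. Klf4 and Klf2 also belong to the pluripotency network of mouse embryonic stem cells, where ZFP281, itself a C2H2 protein of G-rich DNA, is best known.

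For each ZFP281 library the authors deposited 1 list of summits, each a single base with a score, and the lists held 4030 and 6033 summits in PT replicates 2 and 3 and 8588, 15770 and 7055 in EL replicates 1, 2 and 3 on the 19 autosomes, X and Y. The list of PT replicate 1 was the shortest, 71.9% as long as that of PT replicate 2. Sequencing depth is unknown. A longer list gives every gene more chances of a summit, so each comparison was made in the full lists and again in equal lists, the top-scoring summits of each library cut to the length of the shortest list, that of PT replicate 1. The equal lists ended at unlike scores. These were 1.42, 6.61 and 8.74 in PT replicates 1, 2 and 3 and 12.5, 23.3 and 10.3 in EL replicates 1, 2 and 3. A gene was called bound at a boundary when a summit lay within 1 kb of its start or end coordinate, and bound in the wider window when a summit lay in the gene body or within 20 kb of it. The percentile of a summit is its rank within its own list, with 100 for the highest score and 0 written where a library had no summit. In the equal lists 0 can also stand for a summit of the full list that scored below the cut. Percentiles in full lists describe a site within a library and were not compared between groups.

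Klf, Sp and Egr genes carried ZFP281 at their boundaries in both groups. In the full lists 5, 8 and 13 of the 30 genes were bound at a boundary in PT replicates 1, 2 and 3, and 11, 14 and 11 in EL replicates 1, 2 and 3. This was 28.9% ± 13.5 of the family in PT and 40% ± 5.77 in EL (SD, n = 3 each), while 8.14% ± 2.75 of all protein-coding genes in PT and 15.3% ± 4.82 in EL were bound. By library the background was 5.76%, 7.53% and 11.1% in PT and 13.5%, 20.8% and 11.7% in EL. The difference in members, PT minus EL, was -3.33 genes, and the groups overlapped because PT replicate 3 held more bound members than EL replicates 1 and 3. The difference was -1.50 genes without PT replicate 1 and -5.50 without PT replicate 3. In the equal lists 5, 7 and 10 members were bound in PT and 8 in each EL library, against 5.76%, 5.75% and 6.21% of all genes in PT and 5.96%, 5.96% and 6.09% in EL. The difference was then -0.67 genes.

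In the wider window 10, 15 and 20 members had a summit in PT replicates 1, 2 and 3, and 21, 25 and 21 in EL replicates 1, 2 and 3. The means were 15 ± 5.0 genes in PT and 22.3 ± 2.31 in EL (SD, n = 3 each), a difference of -7.33, and every EL library held more than every PT library. Without PT replicate 1 the difference was -4.83. The background was 16.7%, 21.6% and 29.0% of all genes in PT and 34.7%, 48.4% and 30.7% in EL. With equal lists the counts were 10, 12 and 15 in PT and 16, 14 and 16 in EL, so the groups overlapped, at a background of 16.7% to 16.9% in PT and 16.9% to 17.6% in EL. A member had a boundary summit in a median of 1 library and a wider summit in a median of 4.5 libraries of the full lists, against 0 and 1 over all genes. The median length was 10305 bp for the members and 17169 bp for all genes. Members with a wider summit in all 6 libraries had a median of 29735 bp (10 genes) and those with none 7361 bp (4 genes), and the part of gene length was not tested. No p is given for these sums, since the family was chosen with earlier results of these data known.

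**Figure D1:**
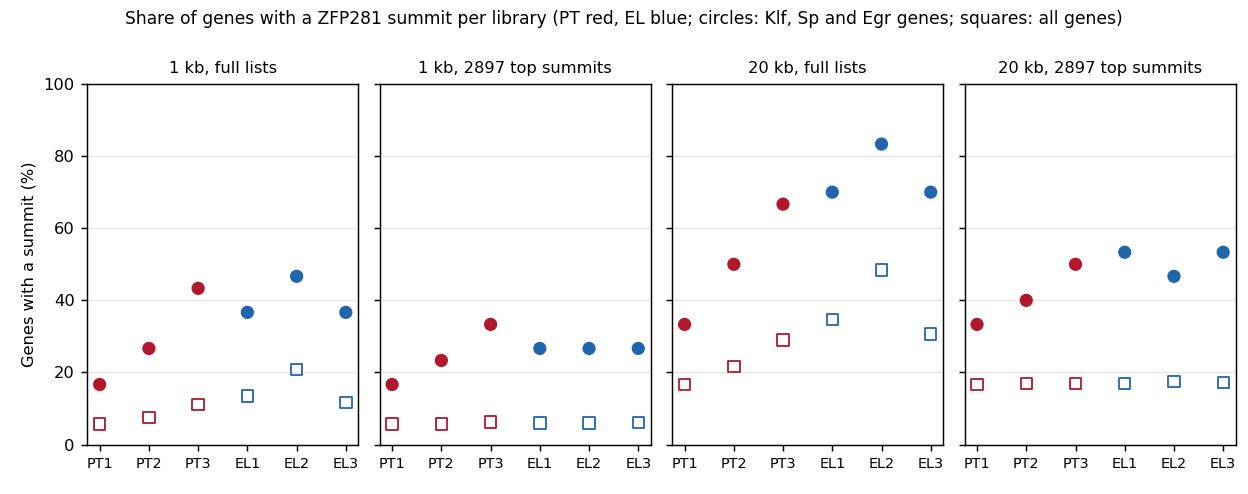
Share of genes with a ZFP281 summit in each library, in percent (circles, the 30 Klf, Sp and Egr genes; squares, all protein-coding genes; PT red, EL blue), within 1 kb of a boundary and in the wider window, for full and equal lists. The circles lie above the squares in all 6 libraries of each panel, from 16.7% against 5.76% in PT replicate 1 at a boundary upwards.

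A boundary was bound in all 6 libraries at 4 members, 13.3% of the family, against 4.39% of all genes. These were Klf10, Klf16, Sp1 and Sp4. A further 4, Egr1, Klf3, Klf4 and Klf6, were bound at a boundary in 5 libraries (5 or 6 libraries, background 6.54%) and lacked a summit only in PT replicate 1, the shortest list, so that 8 members were bound in every remaining library when that one was left out. At least 2 PT libraries bound 9 members (background 7.46%) and at least 2 EL libraries 13 members (background 14.2%), the 9 of PT among them plus Egr2, Egr3, Klf2 and Klf7. Only Klf2 was bound in all 3 EL and no PT library (background 1.94%), joined by Egr2 without EL replicate 3. No member was bound in all 3 PT and no EL library (background 0.0457%). Klf5 and Sp3 had their only boundary summit in PT replicate 3, at percentiles of 2.22 and 12.7, and Sp9 in EL replicate 2, at 31.3. In all, 16 members had a boundary summit in at least 1 library (background 23.1%). No library had one (background 76.9%) at the other 14 members, Klf1, Klf8, Klf9, Klf11, Klf12, Klf14, Klf15, Klf17, Sp2, Sp5, Sp6, Sp7, Sp8 and Egr4. In the equal lists 3 members were bound at a boundary in all 6 libraries, Klf10, Klf16 and Sp1 (background 2.99%). At least 2 PT libraries bound 8 (background 5.72%) and at least 2 EL libraries 8 (background 5.78%), of which 7 were shared, with Egr1 besides in PT and Klf7 in EL. None was bound in 3 EL and no PT (background 0.379%) or 3 PT and no EL libraries (background 0.338%).

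In the wider window 10 members had a summit in all 6 full lists, Klf3, Klf7, Klf9, Klf10, Klf13, Klf16, Sp1, Sp3, Sp4 and Sp7, or 33.3% of the family against 13.0% of all genes. Without PT replicate 1 there were 15, and the share of all genes was not counted there. At least 2 PT libraries had a wider summit at 15 members (background 21.6%) and at least 2 EL libraries at 22 (background 36.4%). In the equal lists 9 of the 10 still had one in all 6 libraries, all except Sp4 (background 8.76%). Egr2 and Klf15 had wider summits in 3 EL and no PT libraries (background 5.19%), and no member showed the converse (background 0.206%). Klf1, Klf8, Klf11 and Sp5 had none in any library (background 48.6%).

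**Figure D2:**
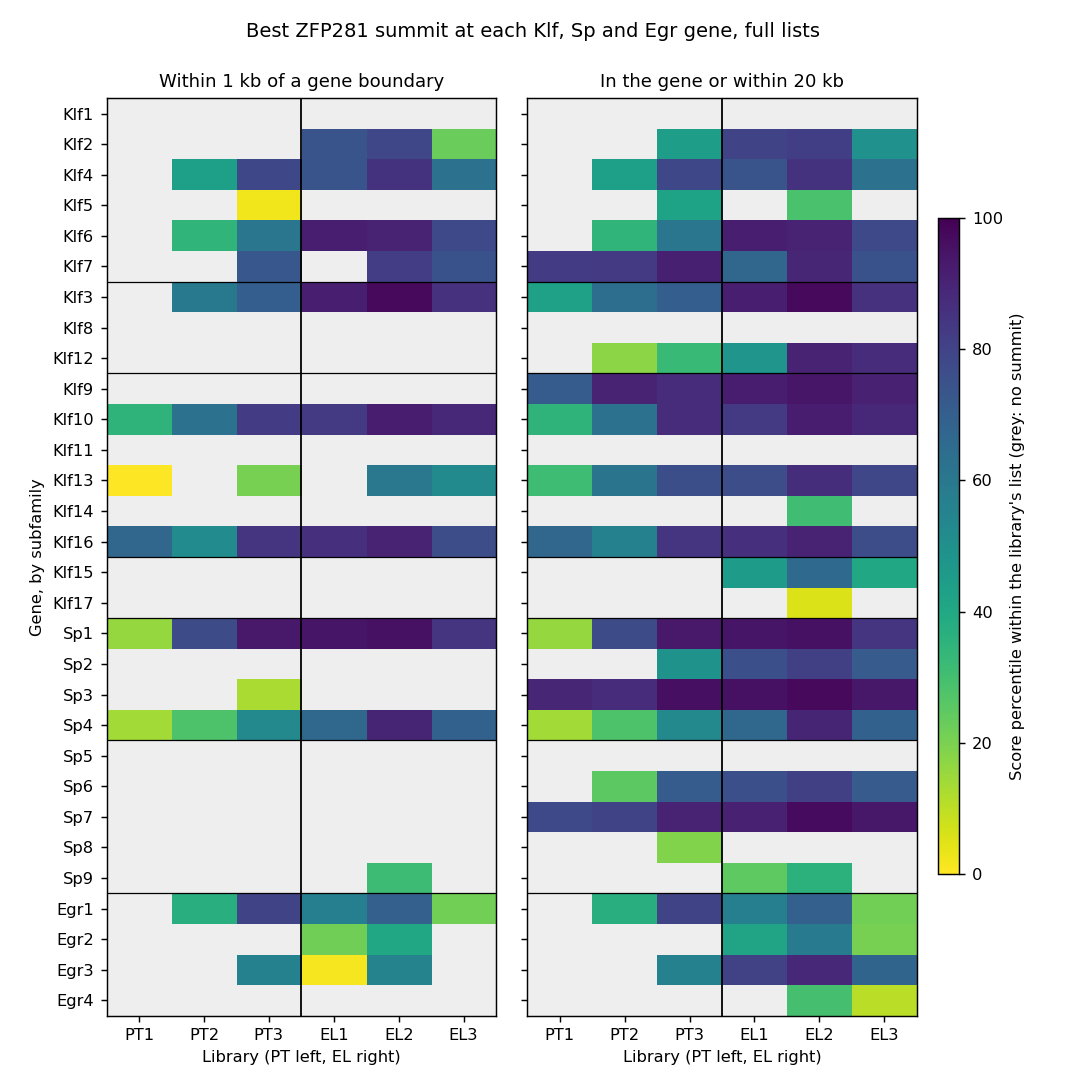
Percentile of the best summit at each of the 30 genes in each library of the full lists (colour scale 0 to 100; grey, no summit), within 1 kb of a boundary on the left and in the gene or within 20 kb on the right, PT columns left of EL columns and lines between subfamilies. The right panel fills rows that are empty on the left, such as Klf9 and Sp7, and leaves 4 rows grey, Klf1, Klf8, Klf11 and Sp5.

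Among the activator-type Klf genes, 2 of 6 were bound at a boundary in at least 2 PT libraries and 4 of 6 in at least 2 EL libraries of the full lists, where 7.46% and 14.2% of all genes were. Cut to equal length, the lists gave 2 and 3 of 6, against 5.72% and 5.78% of all genes. Klf4, a pluripotency and epithelial barrier factor, had a region 132 bp upstream of its listed transcription start (chromosome 4, 55532568 to 55532697). A region here merges summits of the 6 libraries that lay no more than 200 bp from the next. The full-list percentiles of Klf4 were 0, 43.6 and 78.4 in PT and 73.9, 85.3 and 62.5 in EL. In the equal lists they were 0, 21.6 and 54.9 in PT and 22.7, 20.2 and 8.66 in EL, so the groups overlapped, with PT replicate 3 the highest and PT replicate 1 without a summit.

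Klf2, known for quiescence of endothelium and T cells, had its EL region 222 bp upstream of its listed start (chromosome 8, 72318807 to 72318848), with full-list percentiles of 74.0, 78.5 and 23.0 in EL. No PT library held that region. At equal list length only EL replicate 1 kept it, at a percentile of 23.1. The best summits of EL replicates 2 and 3 scored 20.8 and 5.58, below the cuts of 23.3 and 10.3 in those libraries. The cut of PT replicate 1 was at 1.42, and the part of list length in the EL-only pattern was not tested. A second region lay 15.25 kb upstream (72303800 to 72303843) and was found in PT replicate 3 and in all 3 EL libraries.

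Upstream sequences of 4 of the 6 members with a summit just before a listed start are shown to give the bases before that start. Not every summit of these members lay in the stretch shown. Klf7, whose stretch holds a GGGGAGGGG match beginning 198 bases upstream of the start, and Klf13, with 1 PT replicate 3 summit there, are not shown. They come from RefSeq (GRCm38.p6) and are written 5′ to 3′ on the gene's strand, ending at the base before the start. Capitals mark matches, on either strand, to GGGGAGGGG, part of the G-rich sequence that ZFP281 is known to bind, or to the GC box GGGCGG, and overlapping matches run together. The stretches are chr2:72979282-72979431 (minus strand, the start of Sp3 inside the gene), chr4:55532476-55532725 (minus, Klf4), chr8:72318812-72319061 (plus, Klf2) and chr12:118301441-118301690 (minus, Sp4).
Sp3: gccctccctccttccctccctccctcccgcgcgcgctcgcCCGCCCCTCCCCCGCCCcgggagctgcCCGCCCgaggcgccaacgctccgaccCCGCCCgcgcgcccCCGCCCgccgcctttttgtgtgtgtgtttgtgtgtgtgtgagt
Klf4: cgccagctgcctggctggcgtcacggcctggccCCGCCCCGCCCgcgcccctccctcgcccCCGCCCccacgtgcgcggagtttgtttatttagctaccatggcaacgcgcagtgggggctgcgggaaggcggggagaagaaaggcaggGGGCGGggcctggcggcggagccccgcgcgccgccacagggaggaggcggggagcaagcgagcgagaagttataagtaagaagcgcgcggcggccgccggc
Klf2: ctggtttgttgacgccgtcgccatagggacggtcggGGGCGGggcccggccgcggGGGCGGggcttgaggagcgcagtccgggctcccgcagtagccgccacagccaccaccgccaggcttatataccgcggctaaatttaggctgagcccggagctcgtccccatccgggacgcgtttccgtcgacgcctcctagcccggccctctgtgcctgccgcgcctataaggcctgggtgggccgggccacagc
Sp4: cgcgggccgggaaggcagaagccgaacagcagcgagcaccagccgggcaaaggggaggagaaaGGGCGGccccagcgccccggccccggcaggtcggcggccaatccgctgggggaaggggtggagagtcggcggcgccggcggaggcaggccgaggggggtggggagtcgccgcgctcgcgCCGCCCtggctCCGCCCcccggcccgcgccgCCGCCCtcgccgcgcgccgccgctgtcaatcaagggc
The Sp3 stretch holds 1 match to GGGGAGGGG, on the opposite strand and beginning 107 bases upstream of the start, and 5 GC boxes. The Klf4, Klf2 and Sp4 stretches hold 4, 2 and 4 GC boxes and no GGGGAGGGG. At Klf4 the best summits lay 222 and 93 bases upstream of the start in PT replicates 2 and 3 and 132, 117 and 157 bases upstream in EL replicates 1, 2 and 3. At Klf2 those of EL replicates 1 and 2 lay 222 and 214 bases upstream, while that of EL replicate 3, 255 bases upstream, lay outside the stretch. At Sp4 the best summit of PT replicate 1 alone lay in the stretch shown, 13 bases upstream. Those of PT replicate 2 and EL replicates 1, 2 and 3 lay 7, 34, 40 and 61 bases downstream of the start. That of PT replicate 3 lay 803 bases upstream.

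Listed starts were at hand for 22 of the 30 members, with 32 promoter windows of 300 bases (250 before the start and 50 from it), some of which overlap. GGGGAGGGG occurred in 5 of the 32 windows (15.6%) and in 7.42% of all 21263 windows. Of the 6 member windows with a summit, in Klf2, Klf4, Klf7, Klf13, Sp3 and Sp4, 2 held it (Klf7 and Sp3), 6 held GGGCGG and 5 held the CACC box GGGTGG, all on either strand. Of the 2139 windows of any gene with a summit, 27.9%, 78.2% and 50.9% held these 3 motifs, and of the 19124 windows without one 5.12%, 42.6% and 31.6%. GGGGAGGGG stood in 61.3% of the 269 windows with summits of all 6 libraries. The median GC content was 73.2% in the 6 member windows, 66.7% in all windows with a summit and 55.3% in those without, and the part of base composition in the motif shares was not tested.

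Klf6, a tumour suppressor of several epithelia, was bound at both ends. Its leading region lay 34 bp beyond the upper boundary (chromosome 13, 5870395 to 5870448), which on the plus strand is the 3′ end, 8.94 kb from the listed start. A second region, 68 bp downstream of that start, was found in each EL library and in no PT library. At equal list length the second region dropped out of every list, and the first had percentiles of 0, 8.94 and 18.4 in PT and 75.3, 48.6 and 46.4 in EL. Every EL value lay above every PT value (means 9.12 ± 9.22 in PT and 56.7 ± 16.1 in EL, SD, n = 3 each, difference PT minus EL -47.6, exact permutation p = 0.1, two-sided, the smallest that 3 against 3 libraries allow).

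Klf7, an activator known from neurons and fat cells, was bound near its listed start in PT replicate 3 and in all 3 EL libraries, in a region with its middle 23 bp upstream (chromosome 1, 64121316 to 64121423). In the equal lists that region had percentiles of 0, 0 and 43.6 in PT and 0, 2.04 and 38.6 in EL, so the groups overlapped. Some distal regions ranked higher in PT at equal list length. One, 8.46 kb beyond the lower boundary (64020967 to 64021035), had percentiles of 82.6, 62.0 and 82.1 in PT and 0, 41.4 and 0 in EL. Another, 19.9 kb inside the gene from the listed start (64101461 to 64101494), had 42.0, 76.3 and 65.9 in PT and 2.66, 0 and 0 in EL. Both regions were present in all 6 full lists, and their equal-list PT values lay above all EL values. The authors' scores of the groups overlapped. At the first region they were 21.1, 15.3 and 35.0 in PT and 11.5, 34.8 and 8.62 in EL. At the second they were 8.43, 19.9 and 22.6 in PT and 12.5, 18.6 and 5.73 in EL. For the gene as a whole in the wider window the means were 80.3 ± 3.48 in PT and 27.5 ± 21.6 in EL (SD, n = 3 each), a difference of 52.8 (exact permutation p = 0.1, two-sided). Klf5, a luminal and basal epithelial factor, had wider-window summits in PT replicate 3 and EL replicate 2 alone, and Klf1, the erythroid factor, had none.

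Klf3 was the member of the CtBP-binding repressors that carried a boundary summit, in 2 PT and 3 EL libraries. The region lay 622 bp downstream of the listed start, inside Klf3 and inside the overlapping gene Gm38457 (chromosome 5, 64804099 to 64804196), so it cannot be assigned to one of them. Its scores as the authors give them were 11.3 and 13.7 in PT replicates 2 and 3 and 32.5, 77.5 and 22.3 in EL replicates 1, 2 and 3. At equal list length the percentiles were 0, 43.7 and 38.1 in PT and 74.8, 85.1 and 65.6 in EL, with no overlap between the groups (means 27.3 ± 23.8 in PT and 75.2 ± 9.76 in EL, SD, n = 3 each, difference -47.9, exact permutation p = 0.1, two-sided). In the wider window, where PT replicate 1 also had a summit, the difference was -31.7, again without overlap. In the same gene a region 16.3 kb downstream of the start (64819769 to 64819883) was found in 3 PT and 2 EL full lists, and at equal list length in PT replicates 1 and 2 (percentiles 42.8 and 49.7) and in no EL library. Klf12 had a region 1055 bp inside its upper boundary, just outside the 1 kb limit, at full-list percentiles of 0, 17.3 and 32.6 in PT and 47.7, 90.2 and 87.1 in EL. No summit lay in Klf8 or within 20 kb of it.

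The Klf genes of the type that recruits Sin3 included 2 of the 4 members bound in all libraries. Klf10, an early response gene of TGF-beta, carried 2 neighbouring regions at its upper boundary, for which no strand is listed here. The one inside the gene, 636 bp from the boundary (chromosome 15, 38300032 to 38300098), had equal-list percentiles of 32.6, 6.90 and 53.9 in PT and 49.6, 58.6 and 71.5 in EL. The one outside, at 325 bp (38300915 to 38301223), had 34.9, 47.6 and 63.3 in PT and 0 in each EL library, although EL replicates 1 and 2 held it in their full lists. PT values of the outer region thus lay above all EL values, while those of the inner region overlapped with EL. Over both regions the difference of the best summit was -11.3. A window of 500 bp leaves out the inner region and also the far edge of the outer one, up to 38301223. There the difference was 32.7 (means 32.7 in PT and 0 in EL), and the PT values did not all lie above EL.

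Klf16 had a region 757 bp beyond its upper boundary (chromosome 10, 80577962 to 80578063) in all 6 equal lists, at 66.9, 32.7 and 68.7 in PT and 58.7, 45.3 and 42.2 in EL, which overlapped. A second region in its wider window lay inside the neighbouring gene Rexo1 and was in all 6 full lists. In the equal lists it was in PT alone, at 31.1, 39.0 and 34.3. Klf13 had the most regions of all members, 11 in the wider window, and values for it are given although the naming rule did not call for them. Its best summits had equal-list percentiles of 31.2, 46.4 and 50.02 in PT and 30.03, 29.5 and 48.3 in EL, which overlapped.

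Klf9, a target of glucocorticoid and thyroid hormone, had no summit within 1 kb but ranked high in the wider window of every library. Its best equal-list percentiles were 70.9, 86.5 and 73.9 in PT and 77.5, 68.0 and 77.7 in EL. The summits behind them came from 2 regions upstream of the gene. The region 7.15 kb upstream (chromosome 19, 23134045 to 23134092) was in the 3 PT libraries and in EL replicate 3, while the region 5.66 kb upstream (23135518 to 23135622) was in PT replicates 1 and 2 and in the 3 EL libraries. Another region, inside the gene 11.2 kb from the start, was found in every EL library and in none of PT. Klf14, an imprinted gene, had 1 summit, 19.6 kb away in EL replicate 2, and Klf11 none. Of the remaining Klf genes, Klf15, a regulator of gluconeogenesis, had a region 1.17 kb downstream of its listed start in the 3 EL full lists and no PT list, at percentiles of 44.6, 65.8 and 40.4, and Klf17 had 1 summit, in EL replicate 2.

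Sp1, the founding GC-box activator, was bound in all 6 libraries 419 bp downstream of its listed start (chromosome 15, 102406611 to 102406813). The equal-list percentiles were 15.98, 67.6 and 85.6 in PT and 83.4, 75.5 and 63.8 in EL. PT replicate 1 was the lowest and PT replicate 3 the highest, so the groups overlapped (means 56.4 ± 36.1 in PT and 74.2 ± 9.90 in EL, SD, n = 3 each; exact permutation p = 0.7, two-sided). The difference was -17.8, and 2.35 without PT replicate 1. Sp4, which is prominent in neurons, was bound 37 bp downstream of its start (chromosome 12, 118301371 to 118301453) with full-list percentiles of 13.8, 28.0 and 49.2 in PT and 66.8, 89.7 and 68.9 in EL. Among the equal lists that region kept a summit in PT replicate 1 (13.8) and in the 3 EL libraries (1.52, 44.1 and 24.2).

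Sp3, a close relative of Sp1 that competes for the same boxes, carried the highest-ranked site of the Sp1 to Sp4 group, although the 1 kb rule did not reach it. The region (chromosome 2, 72979299 to 72979415) lay 1083 bp inside the upper boundary and 82 bp upstream of the second listed start, in the stretch shown above. Summits lay 107, 18 and 55 bp upstream of that start in PT replicates 1, 2 and 3 and 134, 57 and 126 bp upstream in EL replicates 1, 2 and 3. The authors' scores were 28.3, 23.6 and 51.3 in PT and 44.5, 81.9 and 34.0 in EL, and the equal-list percentiles 89.1, 82.3 and 91.3 in PT and 86.6, 86.7 and 84.3 in EL. The groups overlapped and differed by 1.67 percentile points (exact permutation p = 0.5, two-sided), and by -6.81 with a window of 50 kb, where all EL values lay above all PT values. Sp3 was singled out after its values were seen. Counted from listed starts in place of gene boundaries, Sp1, Sp3 and Sp4 were the 3 members with a summit within 1 kb in all 6 libraries. The share of all genes was not counted in this way. Just inside the boundary limit lay regions of Klf7 at 933 bp, Klf13 at 935 bp and Sp9 at 830 bp. Sp2 had a region 754 bp downstream of a second listed start, in PT replicate 3 and the 3 EL libraries, none of it in the equal lists.

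**Figure D3:**
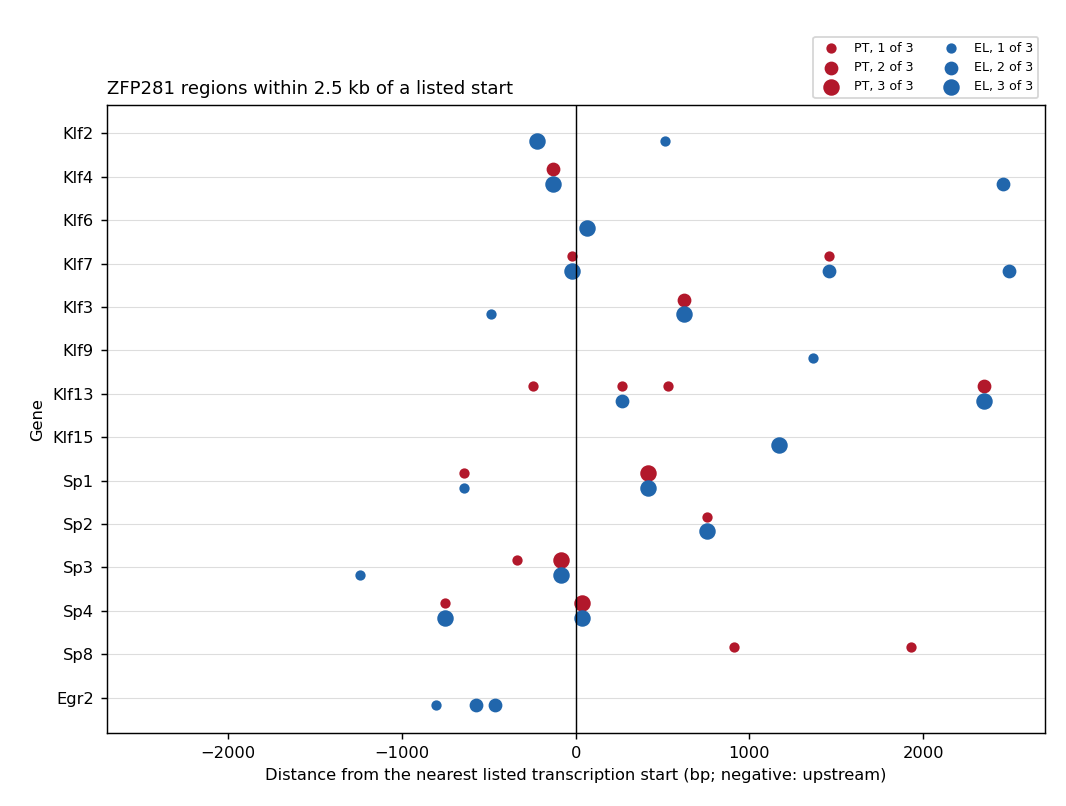
Distance in bp of ZFP281 regions from the nearest listed transcription start, negative upstream, for the 14 members with a region within 2.5 kb (red, PT; blue, EL; dot area by the number of libraries, full lists). The regions nearest a start in Sp3, Sp4 and Sp1 (-82, 37 and 419 bp) carry 3 PT and 3 EL libraries, and those of Klf2 and Klf6 within 1 kb carry EL libraries alone.

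Among the developmental Sp5 to Sp9 genes, Sp6 and Sp7 were bound at a distance. Sp7, the osteoblast factor osterix, had a site 10.4 kb beyond its upper boundary (chromosome 15, 102377371 to 102377406) in all PT libraries and EL replicates 2 and 3, and EL replicate 1 had its best summit nearby, at 102377942. Together these gave equal-list percentiles of 77.7, 71.3 and 79.1 in PT and 72.6, 84.6 and 84.1 in EL. Sp6, an epithelial and tooth factor, had a region 16.7 kb away that lay 69 bp from the gene Lrrc46, in PT replicates 2 and 3 and the 3 EL libraries. The full-list percentiles of that region were 0, 25.16 and 70.93 in PT and 51.51, 78.03 and 58.2 in EL. Among the equal lists PT replicate 3 alone kept it, at 39.45. Sp2 and Sp6 also shared a region between them (chromosome 11, 96997655 to 96997791) that every EL library and none of PT held, at full-list percentiles of 75.5, 80.9 and 71.2, and in the equal lists of EL replicates 1 and 3. Sp8, a limb bud and forebrain factor, had summits inside the gene in PT replicate 3 alone, its relative Sp9 had summits in EL replicates 1 and 2, one of them at the boundary, and Sp5, a Wnt target, had none.

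Egr1, the prototype immediate early gene, was bound at its lower boundary in 5 libraries, 339 bp outside the gene (chromosome 18, 34860772 to 34860964). The full-list percentiles were 0, 37.3 and 79.3 in PT and 56.6, 69.3 and 21.3 in EL. In the equal lists Egr1 was bound in PT replicates 2 and 3 (12.8 and 57.0) and in no EL library, which leaves PT replicate 1 tied with EL at 0 (exact permutation p = 0.4, two-sided). Egr3, which acts in lymphocytes and muscle spindles, had a boundary summit in PT replicate 3 and EL replicates 1 and 2, and a region 13.5 kb beyond its upper boundary, 4010 bp from the gene Bin3, in the 3 EL libraries only (chromosome 14, 70096046 to 70096133). In the wider window at equal list length Egr3 had 0, 0 and 8.63 in PT and 41.6, 36.4 and 21.7 in EL, without overlap (difference -30.4, exact permutation p = 0.1, two-sided). With a window of 10 kb that region was out of reach and the difference was 2.88. Egr2, a factor of myelination, had wider-window summits in each EL library and no PT library, at percentiles of 41.5, 59.3 and 20.6, and none in the equal lists. Egr4 had a region in EL replicates 2 and 3 that lay inside Fbxo41.

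Non-overlapping groups at equal list length thus occurred at 2 members at a boundary, Klf3 and Klf6, both higher in EL (background 1.21% of all genes), and at none higher in PT (background 0.927%). In the wider window Klf3, Klf6 and Egr3 were higher in EL (background 4.59%) and Klf7 in PT (background 3.25%). Leaving out any 1 library gave 5 to 7 such members in place of 4, with 7 without EL replicate 1. Non-overlap is easier to reach with 1 library fewer, and the share of all genes was not counted there. Klf3, Klf6, Egr3 and Klf7 each had p = 0.1 by the exact permutation test and an adjusted p of 1 over the 21887 genes. In this design no gene can pass 0.05 (0 genes had an unadjusted p below it). By region, 35 of the 86 regions in the wider windows of members were in the equal lists, of which 4 were higher in PT without overlap (11.4%, background 11.1%) and 3 in EL (8.57%, background 13.5%), shares close to or below those of all regions. Of the 86 regions, 9 were in all 6 full lists (10.5%, background 8.14%).

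**Figure D4:**
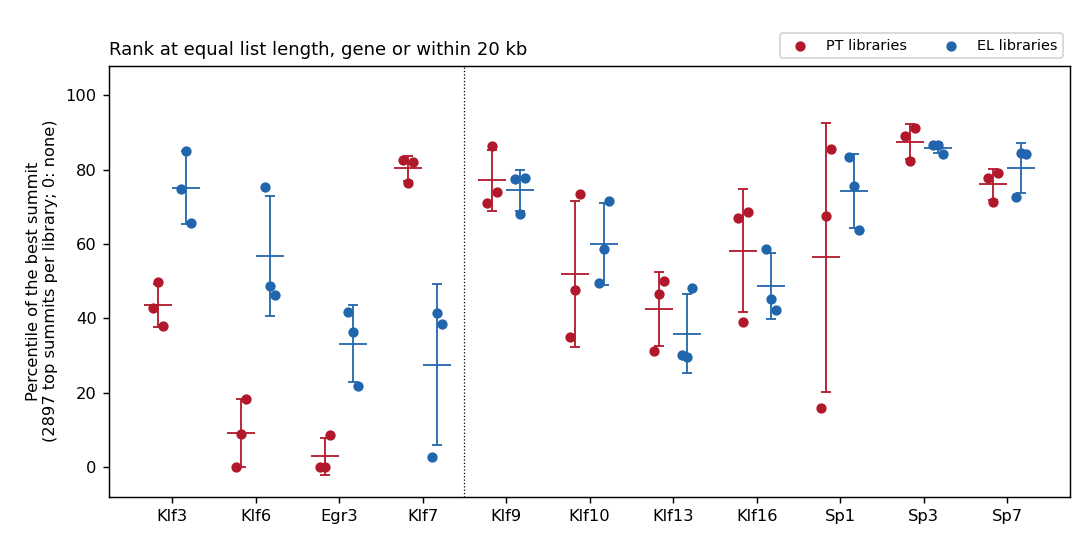
Percentile of the best summit in the gene or within 20 kb in the equal lists (0, no summit) for the 4 members whose groups did not overlap, left of the dotted line, and 7 further members with a summit in all 6 equal lists (dots, libraries; red PT, blue EL; horizontal mark, mean; bar, SD, n = 3). Klf3, Klf6 and Egr3 show EL above PT, Klf7 shows PT above EL, and Sp3 and Sp7 lie at 71.3 or higher in every library.

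Lists of related genes, written with earlier results of these data known, were counted in the same way. Of 12 other C2H2 genes of G-rich or GC-rich DNA, 6 were bound at a boundary in each PT library and 6, 10 and 7 in EL replicates 1, 2 and 3 of the full lists, in which 5.76% to 11.1% of all genes were bound in PT and 11.7% to 20.8% in EL. In the equal lists, with 5.75% to 6.21% of all genes bound, the counts were 6, 5 and 2 in PT and 4, 5 and 5 in EL. Bound in all 6 full lists were Maz, Zbtb17, Zfp148 (the paralogue of Zfp281) and Zfp281 itself, with lowest percentiles of 78.2, 36.7, 23.2 and 15.7. Of 15 cofactor genes of Klf, Sp and Egr proteins, 5, 7 and 9 were bound in PT and 10, 11 and 11 in EL in the full lists, but 5, 5 and 6 in PT and 4, 4 and 6 in EL in the equal lists. In all 6 full lists these included Hdac2, Ep300, Wwp1 and Kat2b, at lowest percentiles of 95.2, 88.4, 39.4 and 25.9. Of 10 genes of upstream regulators, 1, 3 and 2 were bound in PT and 4, 5 and 4 in EL in the full lists, but 1, 3 and 1 in PT and 2, 1 and 1 in EL in the equal lists. Mef2d was bound in all 6 libraries (lowest full-list percentile 75.5), also in the equal lists. The kinase gene Mapk7 was bound in 2 PT and 3 EL full lists, Elk3 in 1 and 3, and Elk4 in 0 and 2, and in the equal lists Mapk7 in 1 and 1, Elk3 in 1 and 0, and Elk4 in none.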

How the data were processed

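Summits of ZFP281 chromatin immunoprecipitation were deposited as 1 list per library, not pooled, for 3 PT and 3 EL libraries. Reads were paired, of 150 bases, per the labels' protocols, and the submitters' processing notes name Picard, Bowtie2 2.3.4.3 and mm10. How the 2 inputs were used and which program called the peaks is not given in the sources used here, and the inputs were not analysed here. The score in the deposited lists is the authors' own. No label names its scale, so it served to rank summits within a list and as a limit of 5 or 10. Scores of single regions of Klf3, Klf7 and Sp3 are given as deposited, and whether they compare between libraries is unknown. Read depth is unknown. No pair of lists shared more than 81 identical positions.

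Members and lists were chosen with earlier results of these data known. Genes and promoter sequences came from RefSeq tables of GRCm38.p6, which list strand and starts for 17492 of 21887 protein-coding genes. A summit was counted for each gene whose window held it. Library values were compared by exact permutation over 20 relabellings (two-sided), adjusted by Benjamini-Hochberg over all genes, with Python 3.11.15, NumPy 2.4.6 and pandas 2.3.3. Steps were tested on simulated lists. By rule, full values went to members bound at a boundary in 5 or 6 libraries or in 1 group alone, to non-overlapping members, and to those bound in 5 or 6 libraries in the wider window alone. Values of other members, Sp3 and Klf13 among them, were chosen after they were seen. Same-numbered PT and EL libraries did not deviate together and were not paired.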

Additional observations from a re-analysis of the deposited data

How the results depend on the processing

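Lists cut to the shortest and to 4000 top summits (PT replicate 1 has fewer) gave a wider-window difference, PT minus EL, of -3.0 and -2.67 genes, and 0 members at a boundary in 3 EL and no PT libraries in each. A score of at least 10 left 0 members at a boundary in all 6 libraries and 5 in the wider window. It left 1 member at a boundary in 3 EL and no PT libraries, but this was Sp4 in place of Klf2. A boundary window of 500 bp gave 2 members in all 6 libraries and 1 with non-overlapping ranks, and one of 5 kb gave 3 members in EL alone. Listed starts in place of boundaries, at hand for 22 members, gave 3 members in EL alone (Egr2, Klf2 and Klf6) and 1 with non-overlapping ranks (Klf3). With a window of 10 kb Egr3 turned to 2.88, because its distal region was out of reach. Leaving out each library in turn gave boundary differences of -5.50 to -1.50 and wider differences of -9.83 to -4.83 genes, 4 to 8 and 10 to 15 members in all libraries, 1 to 2 in EL alone, 0 in PT alone, and 2 to 3 and 5 to 7 with non-overlapping ranks. Other alternatives kept the counts within 1.5 times and the differences within 1 SD. Except for the lists cut to the shortest, these settings were counted for members alone. No share of all genes stands beside those counts, so they are not a result about the family. Non-overlap is also easier to reach with 1 library fewer. For single genes the replicate block gives the same mean difference by construction. The equal lists end at scores of 6.61 to 23.3 outside PT replicate 1, so a limit of 5 could change PT replicate 1 alone. A limit of 10 could change no EL library. Of 203 single-gene values under alternatives, some of which thus could not move, 193 moved by less than 1 SD, 9 by more and 1 was the turn of Egr3. In 11 other values of these 203, all of genes whose groups overlapped, the difference changed sign, to 32.7 for Klf10 (500 bp), -6.81 for Sp3 (50 kb), 8.36 for Sp7 (10 kb), -3.15 for Klf4 and -0.725 for Klf9 (4000 summits) and -3.54 for Klf16 (score of 10), and the rest, of Klf4, Klf9, Sp1 and Sp3, with 1 library left out.

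With the replicate number as a block, the differences were -3.33 genes at a boundary (pairs from -6 to 2) and -7.33 in the wider window (pairs from -11 to -1), and 3 and 5 members moved one way in all pairs, where the smallest exact p is 0.25. Correlations of same-numbered libraries lay between -0.0221 and 0.00709, so no joint deviation was seen. Whether same-numbered libraries were prepared together is not known from this. List length limits all comparisons of full lists.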
